A study of Mus musculus with 6 samples.

Results

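The Clec4 lectin genes followed here are 8 genes of the Dectin-2 cluster of C-type lectin receptors, Clec4a1, Clec4a2, Clec4a3, Clec4a4, Clec4b1, Clec4d, Clec4e and Clec4n. They were chosen by symbol, as the probe sets annotated with one of these symbols alone, and each gene had 1 such probe set, among 19938 genes with a probe set of their own. The data are 6 Affymetrix arrays, 1 for each male mouse, 6 weeks old, whose splenic CD4+ dendritic cells (DC) were sorted and lysed for RNA. The 3 wild-type mice (WT, Runx3 +/+ in the labels) and the 3 mice with a germline loss of Runx3 (Runx3-/-) formed 3 littermate pairs. The loss was present in every cell of the mutant mice and not in DC alone. The sort took CD11c+ MHCII+ cells by CD4 and CD8, and the labels also name Esam without saying how it was gated. Runx3 is a transcription factor of the RUNX family, and the comparison asks which genes respond to its loss in these cells.

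C-type lectin receptors of this cluster are single-pass membrane proteins that bind sugars or glycolipids of microbes and of the body's own cells. Some hold an inhibitory tyrosine motif (ITIM) in their cytoplasmic tail, through which phosphatases such as SHP-1 are recruited, and others pair with the Fc receptor gamma chain, which carries an activating motif and signals through the kinase Syk and the adaptor Card9. Clec4a2, the first known DC immunoreceptor (DCIR), and Clec4a4 (DCIR2) hold an ITIM, and an antibody long used to mark CD8-negative splenic DC recognises DCIR2. Clec4a3 and Clec4a1 are the related DCIR3 and DCIR4. Clec4n (Dectin-2), Clec4d (MCL), Clec4e (Mincle) and Clec4b1 (DCAR) belong to the activating side, with fungal mannans and mycobacterial glycolipids among their known ligands.

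The values are log2 intensities, and a probe set was taken as above background at 6.5 or more, the level in the study's methods. The 6 arrays were alike, with medians from 6.57 to 6.65 and 50.7% to 51.3% of probe sets at or above background. All 11 markers of CD4+ DC were above background in every array and 2 of them (Kit and Irf4) were lower in the mutant, and Cd4 itself lay at 12.45 to 12.81 in WT and 12.66 to 12.82 in Runx3-/- arrays, whereas Cd8a was below background in every array except Runx3-/- 3 (6.54). Runx3 RNA was at 11.24, 11.22 and 11.11 in WT 1 to 3 and at 9.16, 9.30 and 9.16 in Runx3-/- 1 to 3, so every mutant array matched its label (log2 change -1.98, SE 0.08, limma adjusted p = 0.0027, or 0.061 with the litter as a block). The signal left in the mutant, 25.3% of WT, stayed above background in all 3 arrays, and its source was not tested.

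Of the 8 lectin genes, 6 were above background in all 6 arrays and could be tested, and Clec4d and Clec4e were below it in all 6. The 3 genes with the highest signals were Clec4a1, Clec4a4 and Clec4a3, all at a log2 value above 11 in every array, although signals of different probe sets cannot be set against each other as amounts of RNA. Between the genotypes, 1 of the 6 tested genes, Clec4a3, was higher in Runx3-/- DC past an adjusted p of 0.05, and 0 were lower. Over all 19149 tested probe sets 1.56% passed in either direction, 0.856% higher and 0.7% lower. At the study's thresholds, an unadjusted p of at most 0.05 with a 1.5-fold change, Clec4a3 was again the 1 member to pass, beside 3.95% of all tested probe sets (2.01% higher and 1.94% lower). The median log2 change of the 6 genes was 0.19, with 4 positive and 2 negative, beside a median of -0.04 over all tested probe sets. The members' median depended on the litter, at 0.34, 0.01 and 0.23 in litters 1 to 3, and was 0.12 without Runx3-/- 1 and 0.30 without Runx3-/- 2. The RNA came from whole sorted populations, in which fewer cells of a type and less RNA per cell cannot be told apart.

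**Figure D1:**
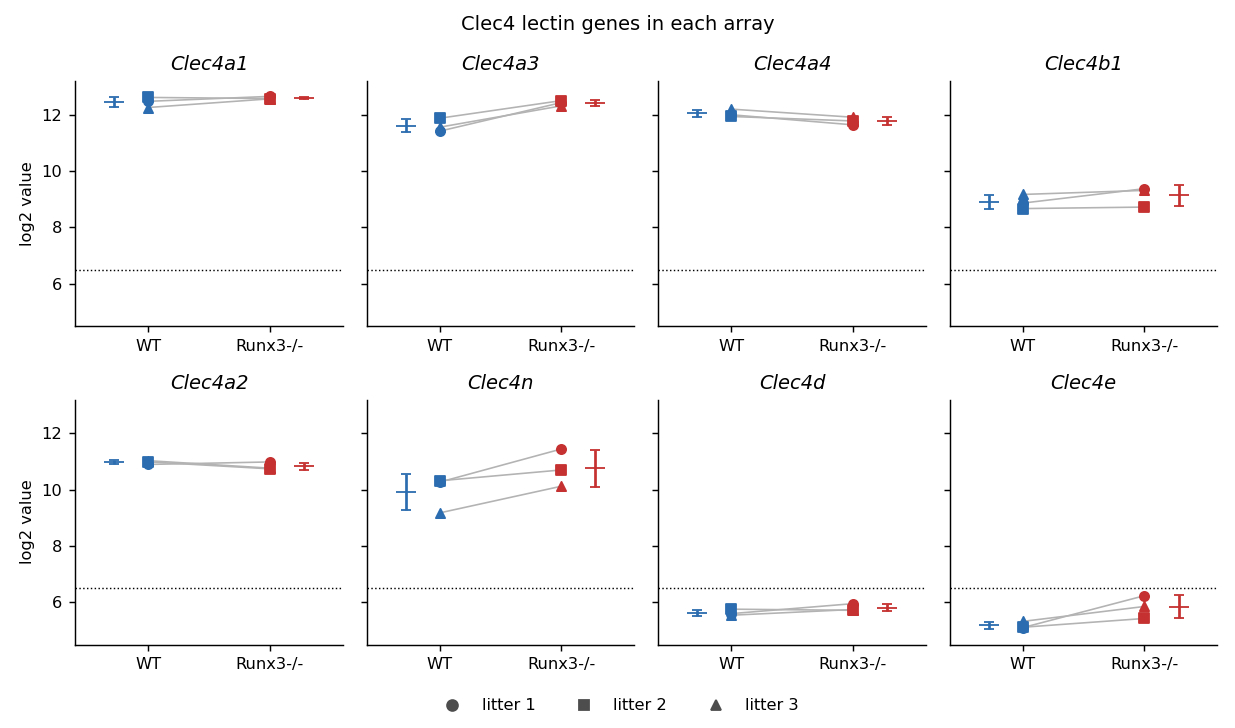
Log2 values of the 8 Clec4 genes (vertical axis) in WT (blue) and Runx3-/- (red) arrays, with grey lines joining littermates, symbols marking the litter, bars at the side giving the mean ± SD (n = 3) and a dotted line at the background of 6.5. WT and mutant points do not meet for Clec4a3 (means 11.62 and 12.42), those of Clec4n overlap, and Clec4d and Clec4e stay under the dotted line.

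Clec4a3 (DCIR3, probe set 10541564) was higher after loss of Runx3. Its log2 value was 11.42, 11.88 and 11.56 in WT 1 to 3 and 12.43, 12.50 and 12.32 in Runx3-/- 1 to 3. The lowest mutant array lay 0.44 above the highest WT array, and the WT arrays were spread more widely (SD 0.23) than the mutant ones (SD 0.09). The change was 1.74-fold, or 0.80 on the log2 scale (SE 0.13, 95% interval 0.48 to 1.12, limma adjusted p = 0.049). The rise was seen in each of the 3 litters, at 1.01, 0.63 and 0.76. The gene stood just inside the threshold, and its adjusted p was 0.094 with the litter as a block and 0.050 after quantile normalization (0.0503). Over 15 alternatives it ranged from 0.027 to 0.18 and passed in 4, and it was 0.10 to 0.18 when any array other than WT 2 was left out, while the change stayed between 0.70 and 0.93. By exact permutation of the arrays, p was 0.1 (two-sided), which 3 against 3 cannot go below.

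Clec4a4 (DCIR2, probe set 10541575), the DCIR of CD8-negative DC, had slightly lower values in the mutant. They were 12.00, 11.94 and 12.20 in WT 1 to 3 and 11.64, 11.78 and 11.91 in Runx3-/- 1 to 3. The groups did not overlap, but only by 0.03 between the highest mutant and the lowest WT array. The log2 change was -0.27 (SE 0.11, 95% interval -0.53 to -0.01), which left 83.0% of the WT level. It did not pass (limma adjusted p = 0.30, unadjusted p = 0.044), and the 15 alternatives gave an adjusted p of 0.20 to 0.57. The difference had the same sign in all 3 litters, at -0.36, -0.16 and -0.29. Clec4a3 and Clec4a4 were thus the 2 of 6 genes whose groups did not overlap, as was the case for 22.4% of all tested probe sets (7.48% higher and 14.9% lower). They were also the 2 with an unadjusted limma p of at most 0.05, a share of 15.9% over all tested probe sets (5.59% higher and 10.3% lower).

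The other DCIR genes showed small differences with overlapping groups. Clec4a2 (DCIR, probe set 10541587) was at 10.90, 10.99 and 11.03 in WT and 10.98, 10.74 and 10.76 in Runx3-/- arrays, where mutants 2 and 3 lay below every WT array and mutant 1 did not. Its log2 change was -0.14 (SE 0.09, 95% interval -0.36 to 0.08, limma adjusted p = 0.51). Clec4a1 (DCIR4, probe set 10541555) was at 12.48, 12.62 and 12.26 in WT and 12.65, 12.58 and 12.57 in Runx3-/- arrays. Here the mutant arrays lay within 0.09 of each other, while WT 3 was the lowest of all. The log2 change of Clec4a1 was 0.15 (SE 0.10, 95% interval -0.11 to 0.40, limma adjusted p = 0.55). With WT 3 left out the change was 0.05. Whether probe sets of such closely related genes also take up each other's RNA was not tested.

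Among the activating receptors, Clec4n (Dectin-2, probe set 10541605) had the largest mean difference of the 6 tested genes and the widest spread. Its log2 value was 10.27, 10.31 and 9.17 in WT 1 to 3 and 11.44, 10.70 and 10.12 in Runx3-/- 1 to 3. The arrays of litter 3 were the lowest of their genotype, and Runx3-/- 3 lay below WT 1 and WT 2, so the groups overlapped. The change was 0.84 on the log2 scale, or 1.79-fold (SE 0.43, 95% interval -0.21 to 1.88), and did not pass (limma adjusted p = 0.41). Within litters the mutant was higher each time, by 1.18, 0.38 and 0.95, and with the litter as a block the SE fell to 0.18 (unadjusted p = 0.0084, adjusted p = 0.16). Without WT 3 the change was 0.46, without Runx3-/- 1 it was 0.49, and without Runx3-/- 3 it was 1.15.

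Clec4b1 (DCAR, probe set 10541581) differed between litters. Values were 8.87, 8.67 and 9.17 in WT and 9.38, 8.72 and 9.32 in Runx3-/- arrays, with litter 2 lowest in both genotypes. The log2 change was 0.24 (SE 0.21, 95% interval -0.28 to 0.75, limma adjusted p = 0.65), and 0.12 without Runx3-/- 1 or without WT 2 as against 0.44 without Runx3-/- 2. The Clec4d (MCL, probe set 10541614) values ran from 5.54 to 5.76 in WT and from 5.71 to 5.95 in Runx3-/- arrays, all below background. Those of Clec4e (Mincle, probe set 10547664) ran from 5.10 to 5.32 in WT and from 5.42 to 6.23 in Runx3-/- arrays. No fold is given for either gene, since values under the background have no reliable order. Clec4b2, a close relative of Clec4b1 that lies within the cluster, was also under 6.5 in all 6 arrays (6.16 to 6.42).

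**Figure D2:**
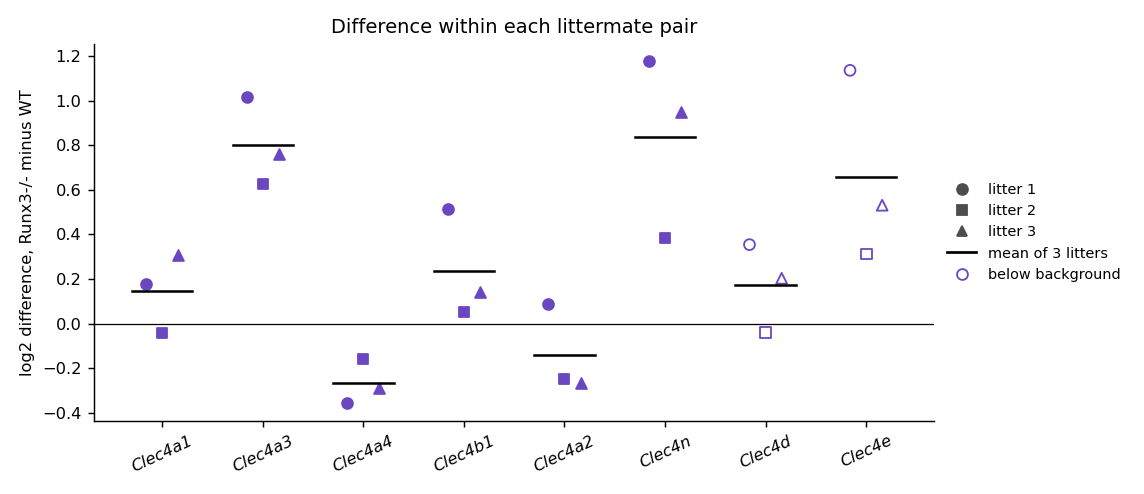
Log2 difference between the Runx3-/- and the WT littermate (vertical axis) for each Clec4 gene, with filled symbols for the 6 tested genes, open ones for the 2 below background, and a bar for the mean of the 3 litters. Among the 6 tested genes, all 3 litters are positive for Clec4a3, Clec4b1 and Clec4n and negative for Clec4a4. In these 4 genes litter 1 has the largest difference in size, unlike in Clec4a1 and Clec4a2.

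Whether members of the cluster changed by different amounts was examined within arrays for 3 pairs. The log2 value of Clec4a3 minus that of Clec4a2 was 0.52, 0.89 and 0.53 in WT and 1.45, 1.77 and 1.56 in Runx3-/- arrays. This ratio shifted by 0.94 toward Clec4a3, and by 0.93, 0.87 and 1.02 in litters 1 to 3. Clec4a3 minus Clec4a4 was -0.58, -0.06 and -0.64 in WT and 0.79, 0.72 and 0.40 in Runx3-/- arrays. This was a shift of 1.07, and of 1.37, 0.78 and 1.05 in litters 1 to 3. For these 2 pairs the groups did not overlap and the exact two-sided permutation p was 0.1 (0.15 adjusted over the 3 pairs tested). That is the smallest p that 3 against 3 arrays allow when litters are ignored. With the litter as a block the exact p was 0.25 for each of the 3 pairs. Clec4n minus Clec4a4 shifted by 1.10, with overlapping groups (exact permutation p = 0.3, adjusted 0.3). Leaving out WT 3 gave a shift of 0.66, leaving out Runx3-/- 1 gave 0.69, and leaving out Runx3-/- 3 gave 1.49. The pairs were chosen with the changes of single genes known, and a ratio between probe sets shows unequal change and not which of them moved.

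The position in the cluster did not order the changes. In chromosomal order the members ran Clec4a1, Clec4a3, Clec4a4, Clec4b1, Clec4a2, Clec4n, Clec4d and Clec4e, so that the gene with the called rise lay between Clec4a1 (0.15) and Clec4a4 (-0.27). The nearest tested genes before the cluster were Necap1, an endocytic adaptor, at 0.08 (SE 0.07), C3ar1, the receptor of complement fragment C3a, at 1.05 (SE 0.61), and Foxj2 at -0.06 (SE 0.14). C3ar1 had a WT mean of 5.58, below background, and did not pass (limma adjusted p = 0.47). On the other side the nearest tested genes lay farther off. They were Pex5, Lpcat3 and Emg1, with 36, 46 and 47 genes between each and the cluster. Before the cluster only 1 (Necap1) to 4 (Foxj2) genes lay between. Pex5, Lpcat3 and Emg1 were at 0.08, 0.19 and -0.04, with limma adjusted p from 0.46 to 0.85.

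**Figure D3:**
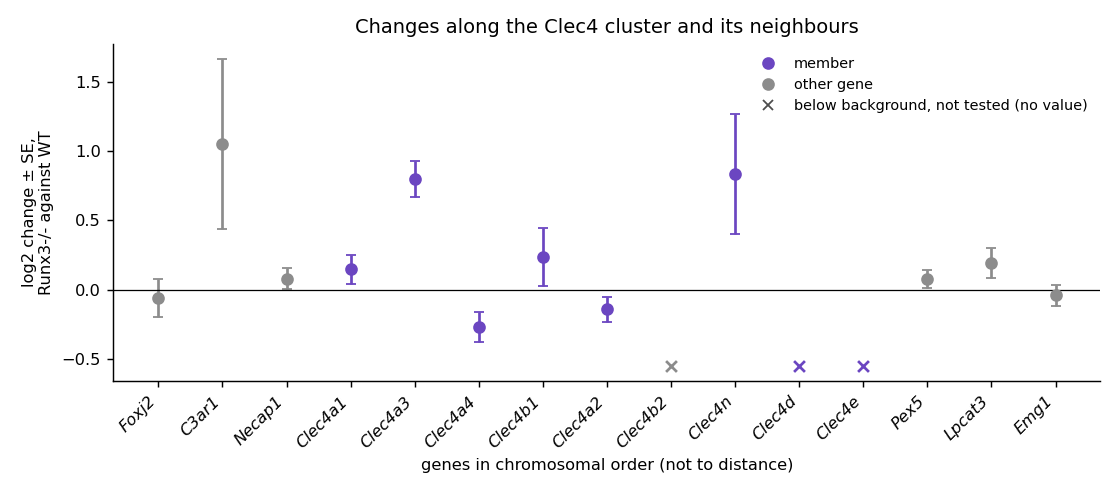
Each point is a log2 change in the mutant with its SE (vertical axis), for the Clec4 genes and the 3 tested genes nearest on either side, in chromosomal order and not to distance. Between the cluster and the genes after it, 36 or more genes are not shown. Crosses at the foot mark the 3 genes of the cluster below background, which have no value. Clec4a3 at 0.80 stands between Clec4a1 at 0.15 and Clec4a4 at -0.27.

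The sequences around the start sites of the genes are shown because they are where a RUNX factor or another shared regulator could bind. RefSeq promoter windows (GRCm38.p6, 250 bases before to 50 after a start site) were used for 5 of the 8 members, in 6 windows, with a pair of start sites for Clec4a3. Clec4a4 and Clec4n had no window in the reference and were not searched. The core RUNX motif TGTGGT, searched on both strands, was present for 3 of the 5 members (Clec4a1, Clec4a3 and Clec4b1). The windows of Clec4a3 overlap and hold the same site, so that 4 of the 6 windows had a match. The motif was in 16.8% of all 32851 promoter windows and in 12.8% of the 10214 windows of tested genes. Of the 250 bases before the upstream start of Clec4a3 (chr6:122952265-122952514, plus strand), the motif is in capitals:
Clec4a3: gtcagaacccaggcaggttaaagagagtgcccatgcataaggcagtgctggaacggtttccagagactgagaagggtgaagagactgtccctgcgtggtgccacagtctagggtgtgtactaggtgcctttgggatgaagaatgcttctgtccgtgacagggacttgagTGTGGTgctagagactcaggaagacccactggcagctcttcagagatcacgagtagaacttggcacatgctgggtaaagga

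A purine-rich run, AAAGAGGAA, which holds the GAGGAA core bound by the ETS factor PU.1, was found in 4 of the 6 windows (1 each of Clec4a1, Clec4a3, Clec4b1 and Clec4d) and in 1.39% of all promoter windows. It was chosen after the sequences had been seen. The genes of the cluster arose by duplication, so their windows are not independent. In all of them it lay on the strand opposite to the gene, as TTCCTCTTT. That of Clec4d began at base 8 after the start site, and the others lay before it. The run is in capitals within 30 bases of each window.
Clec4a1 (chr6:122921621-122921650, plus strand): taatgcctggTTCCTCTTTttcctttcctt
Clec4a3 (chr6:122952584-122952613, plus strand): aatgccctggTTCCTCTTTttcattccttc
Clec4b1 (chr6:123049884-123049913, plus strand): gtttttcaatTTCCTCTTTcccacatcctt
Clec4d (chr6:123262104-123262133, plus strand): caatttccttTTCCTCTTTgctccctgtgt
Clec4b2 (chr6:123172835-123172864, plus strand), no member: gtttctcaatTTCCTCTTTcaaatgtcctt

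The stretches of Clec4a1 and Clec4a3 resemble each other on both sides of the run, as do those of Clec4b1 and Clec4b2. The pair of motifs overlapped in none of these windows. The 30-base stretches of the other RUNX cores (in capitals) were as follows, with that of Clec4b1 at base 10 after the start site.
Clec4a1 (chr6:122921796-122921825, plus strand): agagttccacccTGTGGTtttaaattttca
Clec4b1 (chr6:123049959-123049988, plus strand): attggctatctcTGTGGTatttagctcaga
Clec4a2 held neither run of letters in its window. The core was present upstream of Clec4a3, whose RNA was higher, and of Clec4a1, whose change was 0.15, and a match in letters says nothing about binding.

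None of the tested signalling partners of the receptors passed the adjusted limma threshold. Of 18 listed genes of the Fc receptor gamma and Syk-Card9 pathway, 15 were measured and all were tested, with 8 positive and 7 negative log2 changes and a median of 0.01. The gamma chain Fcer1g had a mean of 13.09 ± 0.09 in WT and of 13.14 ± 0.05 in the mutant, and Syk of 10.89 ± 0.17 and of 11.05 ± 0.03 (SD, n = 3 each). The smallest p belonged to Card9, at 9.72, 9.67 and 9.64 in WT and 9.27, 9.41 and 9.28 in Runx3-/- arrays. Its mutant values lay below all WT values, with a log2 change of -0.36 (SE 0.07, limma adjusted p = 0.081, 0.072 to 0.30 over 15 alternatives). Next came Fyn, a Src family kinase (0.59, SE 0.13, adjusted p = 0.098), Vav3, an exchange factor (-0.29, SE 0.07, adjusted p = 0.11) and Prkcd, a protein kinase C (0.25, SE 0.07, adjusted p = 0.16). At the study's thresholds Fyn alone of the list passed.

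The effectors of ITIM receptors likewise had 0 of 7 genes past the adjusted threshold, by limma, and 0 at the study's thresholds. Their median log2 change was -0.08. Ptpn6, which encodes SHP-1, had a change of -0.10 (SE 0.07, adjusted p = 0.52) and Inpp5d, the lipid phosphatase SHIP-1, of -0.17 (SE 0.07, adjusted p = 0.31). The adaptor Pag1 was at 0.48 (SE 0.12, adjusted p = 0.14). Dok2, another adaptor, was below background in all WT arrays (6.12 to 6.24) and near it in the mutant (6.42 to 6.63, adjusted p = 0.12).

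Products of Card9 signalling, cytokines and other inflammatory genes, were above background in at least 1 array, and so tested, for 9 of 17 genes. Of these 2 rose and 0 fell, with 7 positive and 2 negative changes (median 0.51). Over all tested probe sets 0.856% were called higher and 0.7% lower. At the study's thresholds 3 of the list were higher and 0 lower, beside 2.01% and 1.94% of all tested probe sets. Il1rn, the receptor antagonist of interleukin 1, went from 7.67, 8.37 and 7.70 in WT to 9.73, 9.48 and 9.52 in Runx3-/- arrays, 3.16-fold (limma adjusted p = 0.025, 0.094 with the litter block). Il1a, which encodes interleukin 1 alpha, stayed under the background in WT (5.81 to 5.91) and was at 7.34, 7.09 and 7.23 in the mutant. It was at least 1.65-fold higher (limma adjusted p = 0.011, 0.066 with the block). Il1a entered the test through its mutant arrays alone, so its p rests partly on WT values under the background. Tnf pointed the other way, from 9.44 ± 0.11 to 8.92 ± 0.16 (SD, n = 3 each), with a log2 change of -0.52 that did not pass (adjusted p = 0.089). Il1b was at 0.49 (SE 0.13, adjusted p = 0.16). Il6, Il10 and Il23a, known products of Dectin-2 and Mincle signals, were below background in all 6 arrays.

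Further C-type lectins, listed without the 8 members, were measured for 27 genes and tested for 18. Their median log2 change was 0.53, with 13 positive and 5 negative. Past the adjusted threshold 2 rose and 0 fell, beside 0.856% higher and 0.7% lower of all tested probe sets. At the study's thresholds 7 were higher and 2 lower, beside 2.01% and 1.94%. Clec12a, an inhibitory receptor of another lectin cluster, was at 9.28, 9.25 and 9.34 in WT and 10.80, 10.52 and 10.83 in Runx3-/- arrays, with the genotypes far apart (2.69-fold, limma adjusted p = 0.011, 0.069 with the litter block). Cd69, an early activation antigen, rose 2.46-fold (adjusted p = 0.042, 0.065 with the block), with 2 WT arrays above background. Clec5a, which signals through an adaptor of the activating kind, differed by 1.12 on the log2 scale (SE 0.22, adjusted p = 0.073) and was above background in 1 WT array. Klrk1 was below background in WT and at 7.03 to 8.30 in the mutant (adjusted p = 0.12). Clec7a (Dectin-1), which also signals through Syk and Card9, was at 0.44 (SE 0.26, adjusted p = 0.47). The 2 lower ones at the study's thresholds were Clec4g (LSECtin), at -0.59 (SE 0.16, adjusted p = 0.16), and Cd209b (SIGN-R1), known from marginal zone macrophages, at -0.63 (SE 0.21, adjusted p = 0.23).

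**Figure D4:**
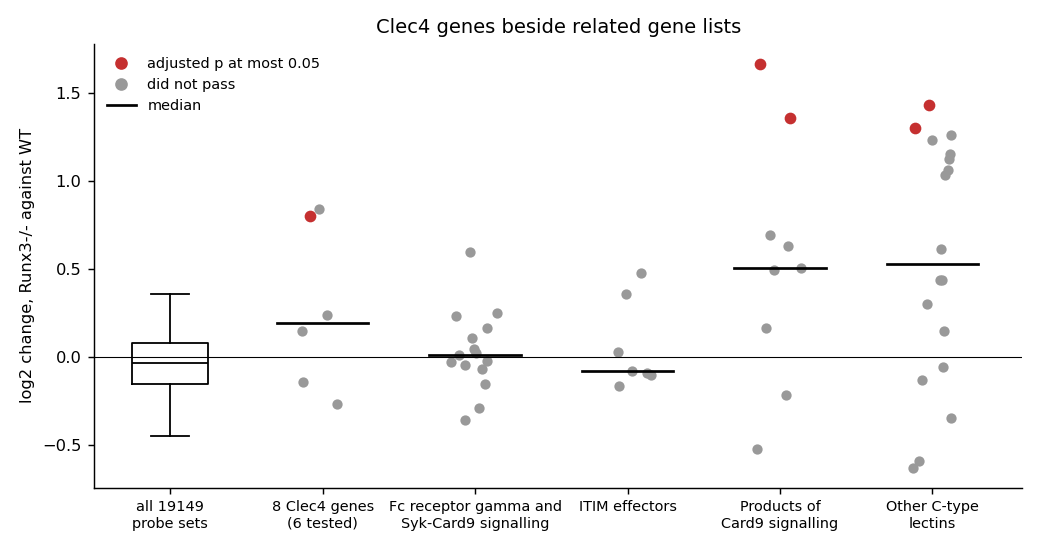
Tested genes of each list by their log2 change in the mutant (vertical axis), in red where the adjusted p was at most 0.05, with lines at the medians. The box at the left gives the median and quartiles, with whiskers at percentiles 5 and 95, of all 19149 tested probe sets, and the medians are 0.19 for the Clec4 genes and 0.53 for the other C-type lectins.

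Mean marker levels of monocytes and red pulp macrophages were higher in the mutant. Over 9 measured monocyte markers the mean log2 level ran from 8.88 to 9.17 in WT and 9.71 to 9.79 in Runx3-/- arrays. Here 1 of 8 tested was called higher, and Nr4a1 had a log2 change of -0.003. For 12 red pulp macrophage markers the mean level ran from 8.36 to 8.87 and 9.60 to 9.85, with 7 of 11 higher. Among the 7, Cd5l reached background in the mutant arrays alone, and it entered the test through them. Adgre1 (log2 change 0.01) and Hmox1 (0.22) did not pass, and Cd163 was below background throughout. Of all tested probe sets 0.856% were called higher. The CD8+ DC markers ran from 7.69 to 7.87 and 7.97 to 8.42, with 2 of 9 higher, and the B cell markers from 6.82 to 7.27 and 7.23 to 7.34, with 0 of 4 called (limma). Csf3r, a receptor of neutrophils and monocytes, was above background, but 9 of 12 neutrophil markers were below it in all arrays, S100a8, S100a9 and Ly6g among them. The plasmacytoid DC markers stood at 7.25 to 7.39 in WT, 7.45 and 7.69 in Runx3-/- 1 and 2, and 8.74 in Runx3-/- 3, where Siglech reached 10.18. Clec4a3 and the other lectins can also be expressed by monocytes and macrophages, and the part of such cells in these differences was not tested. Without Runx3-/- 3 the Clec4a3 change was 0.85 (limma adjusted p = 0.12) and that of Clec4a4 was -0.34 (adjusted p = 0.31). With that array left out, only 1 of all tested probe sets passed. All 6 NK cell markers, and all but Cd5 of the 6 T cell markers, were below background, as were the 2 erythroid markers measured.

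The genes with profiles most like Clec4a3 over the 6 arrays, by the root mean square distance between centred log2 values, were Slc6a20a (0.09), Tent5a (0.10) and Epb41l3 (0.11), out of 9921 other tested genes. Slc6a20a, an amino acid transporter, was at 7.59, 7.80 and 7.64 in WT and 8.39, 8.44 and 8.29 in Runx3-/- arrays, following Clec4a3 in having WT 2 as the highest WT and Runx3-/- 3 as the lowest mutant array. For Clec4a4 they were B430319F04Rik (0.02), Gpatch2l (0.04) and Zfp950 (0.04). Their log2 changes were -0.27, -0.24 and -0.23, and none of these 3 passed (limma adjusted p 0.29 to 0.45). Zfp950 was above background in WT 3 alone (6.71), and B430319F04Rik lay near it, at 6.28 to 6.87. The likeness of these 2 to Clec4a4 thus rests on values at the background. These distances describe 6 arrays and were given no test.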

How the data were processed

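Total RNA of CD4+ splenic DC from 3 WT and 3 Runx3-/- mice was hybridised to Affymetrix arrays. The authors imported the raw files into Partek Genomics Suite and summarised probe sets by RMA (GC-corrected) as log2 values, the form in which they were deposited. RMA brings arrays toward a common distribution and so removes much of any shift that most probe sets share. The medians of the deposited values still ran from 6.57 to 6.65. The submitters' processing notes name mm9, and no program version was found in the labels or methods. The values were used as deposited. Of 35399 probe sets, 19149 reached 6.5 in at least 1 array and were tested. Genes came from the platform annotation, which gave 1 symbol for 21789 probe sets, several for 1621 and none for 11989. Where a gene had several, the one with the highest mean stood for it.

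The test was limma's (version 3.58.1 in R 4.3.3), two-sided, on a model of genotype alone, with Benjamini-Hochberg adjustment over all tested probe sets and a threshold of 0.05. The script was tested on simulated data. Exact permutation tests used scipy 1.17.1. Per the labels a replicate number marks a shared litter, and deviations from the genotype means correlated at 0.10 to 0.25 within litters and -0.23 to 0.10 between them. The members, gene lists and pairs were chosen with earlier results of these data known. A planned ratio of Clec4d to Clec4e was left out because both genes were below background. Named genes were the members, Runx3, list genes that passed or had the smallest p, the 3 nearest profiles and the 3 neighbours on either side. Genes named beside these, such as Syk and Clec7a, were chosen after their values were seen. Of the 18 Syk-Card9 genes listed, 3 had no probe set of 1 symbol. Alternatives were the litter block, the methods' analysis of variance, quantile normalization, median centring, other filters, an intensity trend, robust variances, probe set means and leaving out each array. Promoters came from RefSeq (GRCm38.p6) and are not on the mm9 build of the arrays, and the Clec4e window is not reported here.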

Additional observations from a re-analysis of the deposited data

How the results depend on the processing

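With 6 arrays, the precision of every value is limited by their number. The direction of all 6 tested Clec4 genes was kept under all 15 alternatives, and so was that of the 3 ratios between members under theirs. The single call, Clec4a3, was kept with median centring, an intensity trend, the filter in at least 3 arrays and without WT 2. The count of called members was 0 with the replicate block (litter), the analysis of variance, quantile normalization, no filter, robust variances and probe set means, and 0 to 1 when an array was left out. It was 2 at an unadjusted p of at most 0.05, an alternative chosen after seeing the data. At the study's thresholds the count was 1, and 2 with the replicate block, where Clec4n joined Clec4a3, with 1 to 2 when an array was left out. The Runx3 change was -1.98 with an adjusted p of 0.061 under the replicate block, and -2.03 to -1.94 over all alternatives, -1.96 without WT 1 (adjusted p = 0.053). Without an array it was -2.03 to -1.96. Of the Card9 products 2 were called, 0 with the replicate block or the analysis of variance and 0 to 2 without an array. Of the further lectins 2 were called, 0 with the replicate block or the analysis of variance, 1 with no filter and 0 to 3 without an array (3 without Runx3-/- 2). The cause of these losses was not tested. Over all tested probe sets 298 passed in the main test, but 6 with the analysis of variance and 1 without Runx3-/- 3. With the replicate block or without WT 1, 0 passed, where 3430 and 1968 had an unadjusted limma p of at most 0.05. In such settings few or no genes of any list could be called.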
